A study of Homo sapiens with 6 samples.

Results

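A2M was the protein-coding gene selected on the number of its called sites, that is, positions at which T misincorporation rose under imbalanced dNTP. Its members were the positions on the minus strand of chr12:9067664-9116229 (hg38), the 48566 bases of the gene. There were 6477 such positions of 176343 in the imbalanced dNTP table and 3115 of 246881 in the balanced dNTP table, and 1060 were in both. The canonical transcript, ENST00000318602.12 of GENCODE release 44, has 36 exons with 4610 bases and 35 introns with 43602 bases. Of the imbalanced dNTP positions, 1577 were exonic, 4899 intronic and 1 outside the transcript.

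Nm-mut-seq was run on chromatin-associated RNA (caRNA) from 3 biological replicates of HepG2, an established line of human liver cancer cells. RNA shorter than 200 nt and rRNA had been removed. After ligation, each replicate was split over a pair of reverse transcription reactions, which gave 6 libraries of single-end reads of 100 nt. Both reactions held dATP at 1 mM, and the remaining dNTPs were at 2 µM each in the imbalanced and at 1000 µM each in the balanced reaction. The balanced dNTP library served as the input of its replicate, so that the comparison is between 2 reactions on 1 RNA and not between states of the cells.

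A2M encodes alpha-2-macroglobulin, a large plasma protein that the liver secretes and that traps proteases with a bait region and a reactive thioester. RNA on chromatin holds pre-mRNA that is still being transcribed and spliced, so that both exons and introns of a gene can be read. In 2′-O-methylation (Nm) a methyl group sits on the ribose, and reverse transcriptase short of the matching dNTP tends to insert A opposite a methylated G, A or C, which is then read as T. The mutation ratio is the share of reads with T at such a position, and it is no direct count of methylated molecules. U cannot be scored, since it is read as T in any case. Of 14 genes of secreted liver proteins, 11 had listed positions under imbalanced dNTP, from 6 in APOA1 and 13 in FGA to 806 in ALB, 1122 in AFP and 6226 in APOB, and TTR, FGB and HP had none.

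A site was called where each of the 3 replicates had at least 10 reads, at least 3 of them with T, and a mutation ratio over 3-fold the input ratio. To show what such sites look like, the called site with the highest mean mutation ratio for each base is given with 20 nt on each side, for exons and for introns and at a depth of at least 20. Sequences are the hg38 reference written 5′ to 3′ on the transcript strand with T for U, and the capital marks the called base.
G in exon 28: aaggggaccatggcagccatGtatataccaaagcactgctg
A in exon 6: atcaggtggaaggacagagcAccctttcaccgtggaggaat
C in exon 32: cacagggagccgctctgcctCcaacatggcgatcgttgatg
G in intron 15: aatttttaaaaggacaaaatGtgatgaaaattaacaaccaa
A in intron 16: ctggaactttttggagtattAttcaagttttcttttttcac
C in intron 22: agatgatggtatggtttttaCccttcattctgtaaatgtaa
The exonic sites lay in coding sequence at chr12:9076858 (G, exon 28), chr12:9109890 (A, exon 6) and chr12:9070555 (C, exon 32). The intronic ones lay at chr12:9098350 (G, intron 15), chr12:9095347 (A, intron 16) and chr12:9086533 (C, intron 22). In RNA letters the 5-base contexts of the G sites were AUGUA in exon 28 and AUGUG in intron 15, with a U on either side of the G in both.

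The G in exon 28 was read as T in 5 of 26, 5 of 21 and 4 of 29 reads in replicates 1, 2 and 3, a mutation ratio of 18.9% ± 5.01 (SD, n = 3). The A in exon 6, the deepest of the sites shown, was read as T in 10 of 70, 12 of 69 and 13 of 111 reads (14.5% ± 2.84). Under balanced dNTP this A had 3 T reads of 183 in replicate 1 and 0 of 126 and 0 of 180 in replicates 2 and 3, counts of 0 that allow shares of up to 2.38% and 1.67%. A call requires a ratio above the input in every replicate, so that this separation was set by the choice of the site. The C in exon 32 was read as T in 3 of 32, 6 of 34 and 8 of 50 reads (14.3% ± 4.38).

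The G in intron 15 had the highest ratio of any called site of the gene, and the widest spread of the sites shown, with 3 of 25, 10 of 27 and 6 of 20 reads (26.3% ± 12.9). For the A in intron 16 the counts were 10 of 33, 3 of 24 and 5 of 41 (18.3% ± 10.4), and for the C in intron 22 they were 7 of 29, 3 of 27 and 4 of 25 (17.1% ± 6.58). The spread between replicates at these shallow intronic sites was so wide that their order could not be told from these libraries. The C in intron 22 was also listed under balanced dNTP, with 1 T read of 57 in replicate 1 and 0 of 49 and 0 of 68 in replicates 2 and 3, which allow shares of up to 6.12% and 4.41%. The other 4 sites were not listed under balanced dNTP, and their input was taken as 0.

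Called sites also occurred in dense runs, and the windows of 100 nt with the most of them are shown for exons and for introns, with every called base in capitals.
exon 2, chr12:9113367-9113466: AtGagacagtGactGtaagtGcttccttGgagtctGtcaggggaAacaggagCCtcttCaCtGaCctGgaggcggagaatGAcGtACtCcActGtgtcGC
intron 13, chr12:9099759-9099858: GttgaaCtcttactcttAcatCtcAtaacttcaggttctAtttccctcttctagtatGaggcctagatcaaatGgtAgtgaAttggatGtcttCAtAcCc
The exon 2 window, on the minus strand like all sequence here, held 77 G, A or C bases, of which 60 were listed and 25 called (12 G, 5 A and 8 C). Their mean mutation ratios were between 2.78% and 15.1% with a median of 4.85%, at median depths of 99.5, 92.5 and 137 reads in replicates 1, 2 and 3. In the intron 13 window, 52 of 63 such bases were listed and 15 called (4 G, 7 A and 4 C), with ratios from 4.12% to 9.53% (median 6.96%) and median depths of 53, 55 and 96. Sites in 1 window share reads and are not independent of each other.

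In all, 833 of the 6188 A2M positions read at least 10 times in every imbalanced dNTP library were called, 13.5%, while the same criteria called 26.7% over the series. The gene was chosen on this contrast, so that these counts only describe it. Of the 833 sites, 391 were exonic and 442 intronic, and 638 (270 and 368) were not listed under balanced dNTP. Their lowest depth over the replicates had a median of 51 (11 to 143), and their mean ratio a median of 8.71% with quartiles of 6.18% and 12.2%. Without replicates 1, 2 and 3 the criteria were met at 1392, 1497 and 1099 positions, and the intronic share, 53.1% over 3 replicates, was then 61.6%, 61.3% and 57.9%. Within single replicates 2830 of 6350 positions passed in replicate 1 (44.6%, over the series 52.0%), 2511 of 6272 in replicate 2 (40.0%, over the series 48.8%) and 4232 of 6445 in replicate 3 (65.7%, over the series 66.5%).

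**Figure D1:**
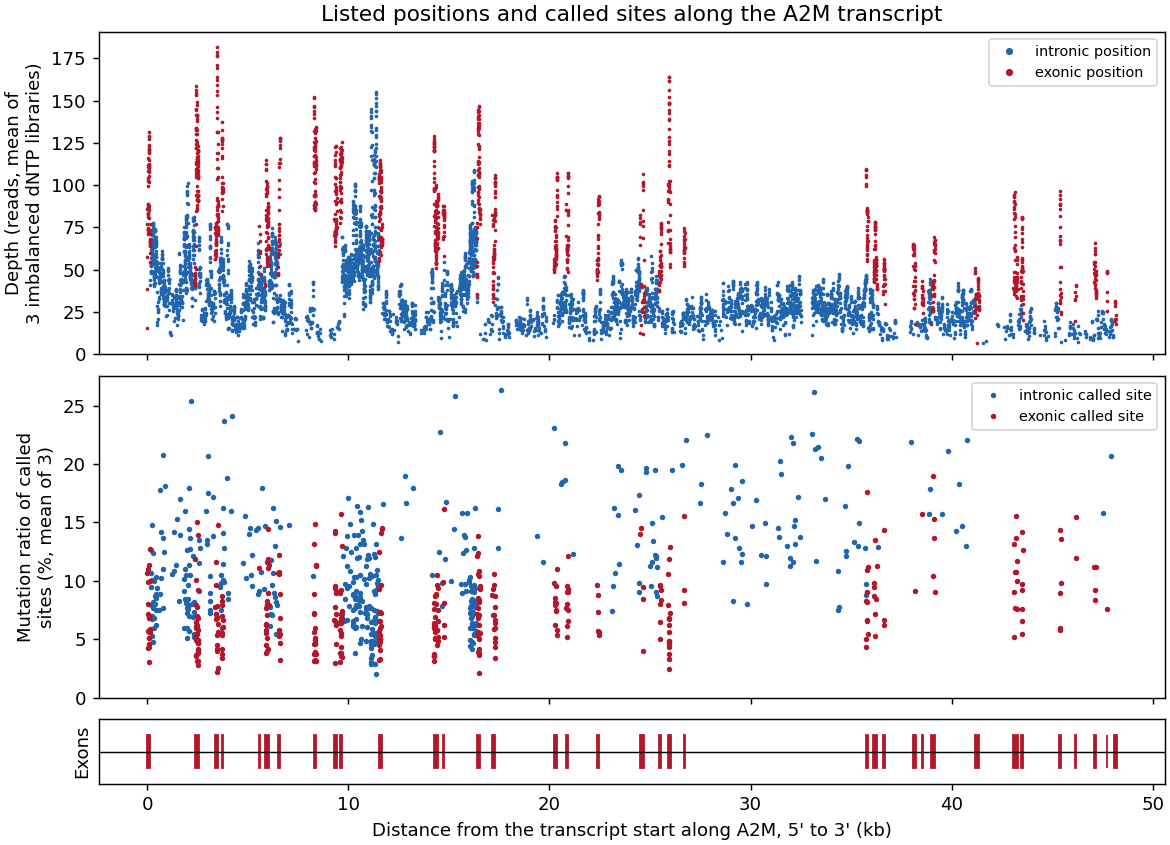
Along A2M (x axis, distance from the transcript start in kb, 5′ to 3′), the upper panel plots the depth of each listed position as the mean of 3 imbalanced dNTP libraries, the middle panel the mean mutation ratio of each called site in percent, and the bottom strip the 36 exons to scale. Exonic positions are red and intronic ones blue. In every replicate the median depth of each intron lies below the mean of the medians of its flanking exons. Single intronic positions can still be deeper than exonic ones nearby. Of the 833 called sites, 645 lie 5′ of the midpoint of the gene, where more positions were listed as well.

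Exons of A2M were read more deeply than its introns, and both were read, as the profile along the gene shows. Under imbalanced dNTP the median depth of listed exonic positions was 69, 62 and 94 reads in replicates 1, 2 and 3, and that of intronic positions was 29, 26 and 40. The lowest exonic median lay above the highest intronic one. Exons were thus 2.38-, 2.38- and 2.35-fold deeper (mean 2.37-fold; log2 1.25 ± 0.01, SD, n = 3). A two-sided exact permutation test on the pairs gave p = 0.25, which is the lower limit for 3 pairs.

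Under balanced dNTP the exonic medians were 144, 96 and 143 and the intronic ones 48, 32 and 46, a 3.04-fold difference (3.00-, 3.00- and 3.11-fold; exact p = 0.25), a setting added after the imbalanced dNTP values had been seen. All these medians cover listed positions alone. Under imbalanced dNTP a position was listed only where every library had at least 5 reads and one of them at least 3 T reads. The balanced dNTP medians cover the 825 exonic and 2286 intronic positions listed in that reaction, where fewer T reads could suffice. The folds of the reactions thus rest on different sets of positions. Of the G, A and C bases of the exons 45.0% were listed under imbalanced dNTP, against 16.8% of those of the introns. The depth of most intronic bases is therefore not given, and the fold applies to the listed ones.

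**Figure D2:**
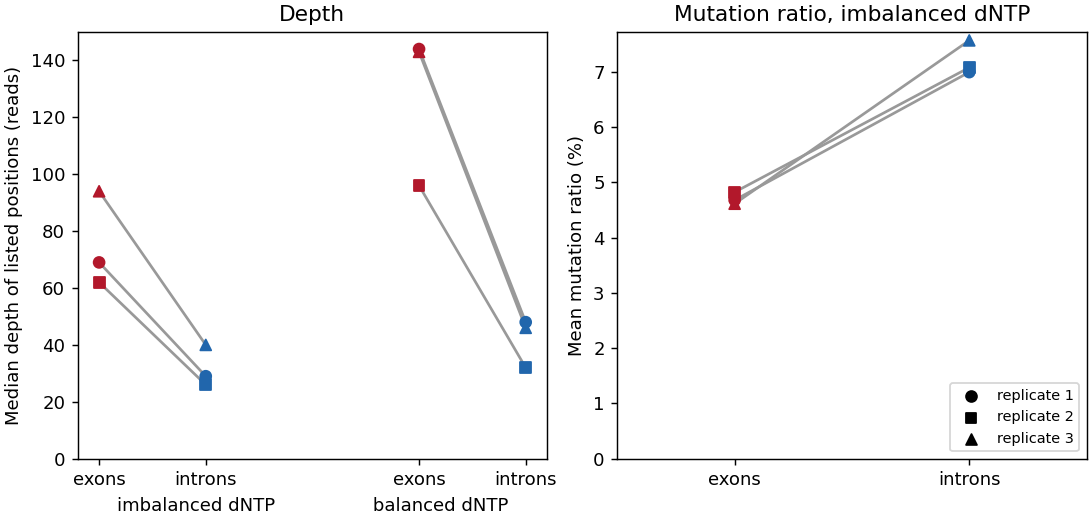
The left panel shows the median depth in reads of listed exonic (red) and intronic (blue) A2M positions for each replicate (symbols) under imbalanced and balanced dNTP, and the right panel the mean mutation ratio in percent under imbalanced dNTP, with grey lines joining the values of 1 library. In each of the 6 libraries exons were deeper than introns, and in each of the 3 imbalanced dNTP libraries the mean ratio was lower in exons.

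The step in depth stood at the splice sites. In the last 25 nt of exons before a 5′ splice site the median depth was 69, 64 and 93.5 reads, and in the first 25 nt of the introns that follow it was 31, 29.5 and 42. At the 3′ splice site the last 25 nt of introns had 25, 23 and 38 reads, and the first 25 nt of exons 58, 50 and 85. In each library the exonic side was thus the deeper one at both ends of an intron. Each of the 35 introns had a median depth below the mean of its 2 flanking exons in all 3 replicates. As a fraction of that mean it ran from 0.127 ± 0.0164 (SD, n = 3) in intron 8 (20 listed positions) to 0.658 ± 0.0510 in intron 6, with a median of 0.374.

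Introns of A2M differed among themselves. Mean median depths ran from 11.2 reads in intron 33, over 20 listed positions, to 56.3 in intron 10. The share of G, A and C bases listed ran from 1.84% in intron 29 to 50.7% in intron 10. Intron 10, of 1835 nt, held 600 listed positions and 117 called sites, at median depths of 53, 47 and 69 reads. Intron 1 held 79 called sites (45, 40 and 60 reads) and intron 22, the longest with 9022 nt, held 1000 listed positions and 61 called sites (25, 23 and 36 reads). These introns together held 257 of the 442 intronic called sites, and intron 13 held a further 55. In contrast, 10 of the 35 introns had no called site, introns 8, 9 and 14 in the 5′ part of the gene and the remaining ones from intron 23 on. Neighbours could differ widely: intron 9, with 145 nt between exons 9 and 10, lies directly before intron 10. It was read at a median of 17, 15 and 19, over 9 listed positions only. Length and median depth of the introns had a Spearman correlation of 0.0974 over the 35 introns of the same libraries, given as a description.

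Exons ranged from 23.3 reads in exon 36, the last one (9 listed positions), to 115.5 in exon 8 (means of the 3 medians). Exon 2 had 34 called sites, the most of any exon, exon 12, with 106 the exon with most listed positions, had 31 and exon 14 had 26, while exons 29 and 36 had none.

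**Figure D3:**
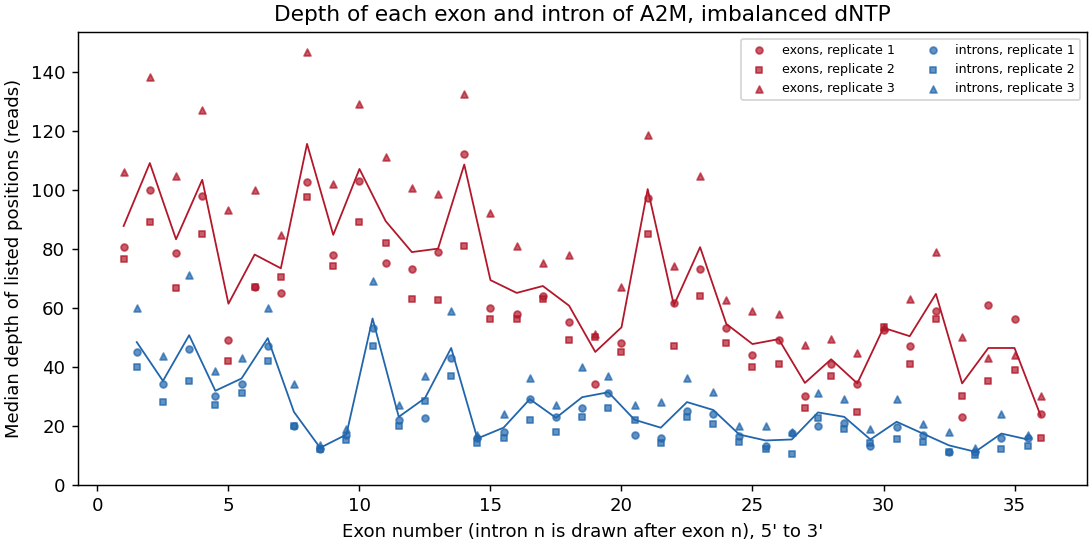
Median depth in reads of the listed positions of each exon (red) and each intron (blue, drawn to the right of the exon it follows) of A2M under imbalanced dNTP, in order from 5′ to 3′, with a symbol for each replicate and a line through the mean of the 3 replicates. Each intron lies under the mean of its flanking exons, and both series are lower towards the 3′ end.

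Depth was higher in the 5′ part of A2M than in its 3′ part, in introns and in exons. The gene was divided at the midpoint of its span, chr12:9091946. Listed intronic positions had median depths of 36, 32 and 49 reads in the 5′ part and of 23, 21 and 33 in the 3′ part, so that within each replicate the 5′ part was the deeper one. The fold was 1.57, 1.52 and 1.48 (mean 1.52-fold; log2 0.61 ± 0.04, SD, n = 3; exact paired permutation test, p = 0.25). Under balanced dNTP the intronic medians were 56, 39 and 54 against 40, 26 and 38, a mean of 1.44-fold (exact p = 0.25).

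Exonic positions had 79, 73 and 109 reads in the 5′ part and 49, 44 and 62 in the 3′ part, a mean of 1.68-fold (1.61, 1.66 and 1.76; exact p = 0.25). In exons 58.1% of G, A and C bases were listed in the 5′ part and 32% in the 3′ part, and in introns 20.8% and 12.7%. Called sites fell from 299 to 92 in exons and from 346 to 96 in introns, with fewer positions listed in the 3′ part. Of positions read at least 10 times in each replicate, 29.5% and 16.4% were called in exons. In introns these shares were 11.7% and 5.83%. Over exon numbers the Spearman correlation with depth was -0.795 (36 exons), and over intron numbers -0.658 (35 introns). These elements share libraries and depth, and the values are descriptions.

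Within single long introns the direction was not the same as over the gene. In intron 22 the first 25% of the length had median depths of 20, 18 and 30 reads and the last 25% had 26, 23 and 36. In intron 18 the values were 17.5, 16 and 25 against 32, 28.5 and 46, so that in both introns each library was deeper towards the 3′ splice site. In introns 1, 11 and 15, the other introns of at least 2000 nt, the ratio of first to last lay between 0.842 and 1.16.

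The mean mutation ratio of listed A2M positions was lower in exons than in introns. Over 1573 exonic positions read at least 10 times in each replicate it was 4.68%, 4.82% and 4.61% (4.71% ± 0.107, SD, n = 3). Over 4615 intronic ones it was 7.0%, 7.08% and 7.57% (7.21% ± 0.310). The groups did not overlap, and the difference was -2.51 percentage points (SD 0.388; exact paired permutation test, p = 0.25). Among called sites the means were 7.56% ± 0.629 in exons and 11.4% ± 0.949 in introns.

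Depth moved with this difference, and the 3 T reads that listing asks for are a larger share of a shallow position than of a deep one. In exons the mean ratio was 7.98% over the 41 positions with a mean depth of 20 to under 30 reads and 3.69% over the 390 with 100 to under 200. In introns it was 8.27% over 1375 positions and 3.39% over 57 in the same classes. At 30 to under 50 reads exons had 5.93% ± 0.237 and introns 6.60% ± 0.0876, and at 50 to under 100 reads 4.61% ± 0.192 and 5.15% ± 0.133. Averaged within classes of depth with at least 20 positions of each kind, the difference was 0.03, -0.28 and -0.65 points (mean -0.300, SD 0.340; exact p = 0.5), smaller than over all depths. This average gives each class the same weight, and the classes were not alike. Exons were lower in all 3 replicates at 30 to under 50 reads (-0.666 points, SD 0.224) and at 50 to under 100 reads (-0.543, SD 0.241), which held most of the exonic positions. They were higher in all 3 at 100 to under 200 reads (0.299, SD 0.233, 57 intronic positions), with an exact p = 0.25 for each of these classes, and the sign was mixed at 20 to under 30 reads (-0.292, SD 1.11, 41 exonic positions).

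**Figure D4:**
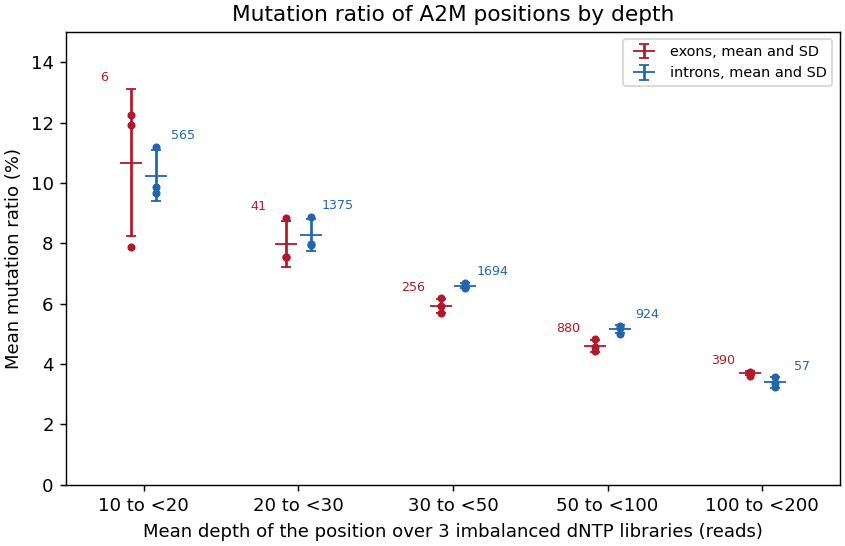
Mean mutation ratio in percent of listed A2M positions under imbalanced dNTP by the mean depth of the position in reads, for exons (red) and introns (blue), with a point for each of 3 replicates, bars for the mean ± SD and the number of positions beside each. The ratio falls with depth in both, from 10.7% and 10.2% at 10 to under 20 reads (6 and 565 positions) to 3.69% and 3.39% at 100 to under 200.

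The share of positions called rose with depth as well. In the class of 20 to under 30 reads 4.88% of exonic and 3.71% of intronic positions were called, at 50 to under 100 reads 25% and 21.8%, and at 100 to under 200 reads 36.7% and 36.8%. Over all depths 24.9% of exonic and 9.58% of intronic positions were called, and of all G, A and C bases 11.1% and 1.52%.

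The ratio was higher in the 3′ part than in the 5′ part, in exons 5.41% ± 0.0519 against 4.31% ± 0.150 and in introns 8.16% ± 0.495 against 6.69% ± 0.219, in the direction opposite to depth. Among exonic positions with 50 to under 100 reads the 5′ minus 3′ difference was -0.0893 points (SD 0.279; exact p = 0.75). Among intronic positions with 30 to under 50 reads it was -0.694 (SD 0.150; exact p = 0.25), with the 5′ part lower in all 3 replicates. In exons at 30 to under 50 reads the difference was -0.502 (SD 0.696; exact p = 0.5). In introns at 50 to under 100 reads it was 0.0350 (SD 0.952), with 13 positions in the 3′ part. Near splice sites, within 200 nt, intronic positions had a mean ratio of 7.01% ± 0.273 against 7.31% ± 0.340 farther away, at depths of 31, 28 and 42 against 28, 26 and 40 reads. Called sites made up 1.73% of the 8404 intronic G, A and C bases near splice sites (145 sites) and 1.43% of the 20771 farther away (297 sites). More of these bases were also listed near splice sites, 18.7% against 16.0%. In the 25 nt of introns next to the 5′ and 3′ splice sites the called shares were 0.987% and 1.27%, and from 26 to 50 nt they were 1.65% and 2.74%.

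The same positions could be set against the input where both tables listed them. Over 433 exonic positions the share of T reads was 4.43%, 4.67% and 4.52% under imbalanced dNTP and 0.265%, 0.350% and 0.306% under balanced dNTP. Over 627 intronic positions it was 6.53%, 6.60% and 6.69% against 0.952%, 1.04% and 1.05%. No library overlapped between the reactions. These positions were listed through at least 3 T reads in an imbalanced dNTP library, so that the listing in part fixed this separation. The intronic share of T was above the exonic one in both reactions, without matching for depth. Introns were the shallower part, and whether this difference goes with depth was not tested at these positions. Mismatches to bases other than T made up 0.237% to 0.245% of exonic and 0.317% to 0.353% of intronic reads under imbalanced dNTP, and 0.332% to 0.369% and 0.285% to 0.345% under balanced dNTP. In an edgeR quasi-likelihood F test of mutated against unmutated reads, 427 of 1031 A2M positions were higher under imbalanced dNTP at a Benjamini-Hochberg adjusted p of 0.05, 41.4%, against 73.9% of all positions tested. They were 251 of 432 exonic positions (median log2 difference 3.37) and 176 of 599 intronic ones (2.96). The count was 706 without the replicate block, and 79, 110 and 72 without replicates 1, 2 and 3. A2M was chosen on this contrast, and the tested positions were those listed in both reactions, so that these counts only describe them.

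G was the most frequent base among called sites in exons and in introns. In exons 195 G, 74 A and 122 C were called (49.9%, 18.9% and 31.2%), while the exons themselves hold 31.3% G, 35.5% A and 33.2% C among these bases. In introns 273 G, 101 A and 68 C were called (61.8%, 22.9% and 15.4%), from 26.2% G, 46.4% A and 27.4% C. A, the most abundant of the 3 bases in introns, was called at 0.746% of its occurrences and G at 3.57%.

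The mean ratio followed the base too. In exons it was 5.51% ± 0.0631 for G, 3.94% ± 0.201 for A and 4.59% ± 0.118 for C, and in introns 8.57% ± 0.137, 6.41% ± 0.449 and 6.54% ± 0.456 (SD, n = 3). At 50 to under 100 reads G exceeded A and C by 1.21 points in exons (SD 0.0830) and by 1.78 in introns (SD 0.208), in all 3 replicates (exact p = 0.25 for each). A and C in introns did not differ beyond their spread.

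Whether exons and introns differed in base was asked within each replicate. Among the positions that passed in a replicate G made up 39.1%, 39.1% and 37.9% in exons and 41.0%, 42.4% and 37.6% in introns, a difference of -1.62 points (SD 1.81; exact paired permutation test, p = 0.5) that was within the spread between replicates. Among sites that passed in all replicates it was -11.9 points. At a ratio of at least 10% in the replicate the sign turned, to 7.50 points (SD 6.25; exact p = 0.25). The direction thus depended on which sites were taken, and depth differed between exons and introns throughout.

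The share of G among called sites was also larger in the 3′ part, 63.0% against 45.8% in exons and 82.3% against 56.1% in introns. The 3′ part was the shallower one, and these shares were not compared at matched depth. Among sites whose ratio reached 10% in all replicates, 22 of 25 exonic and 96 of 122 intronic sites were G, and no C was among the exonic ones.

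**Figure D5:**
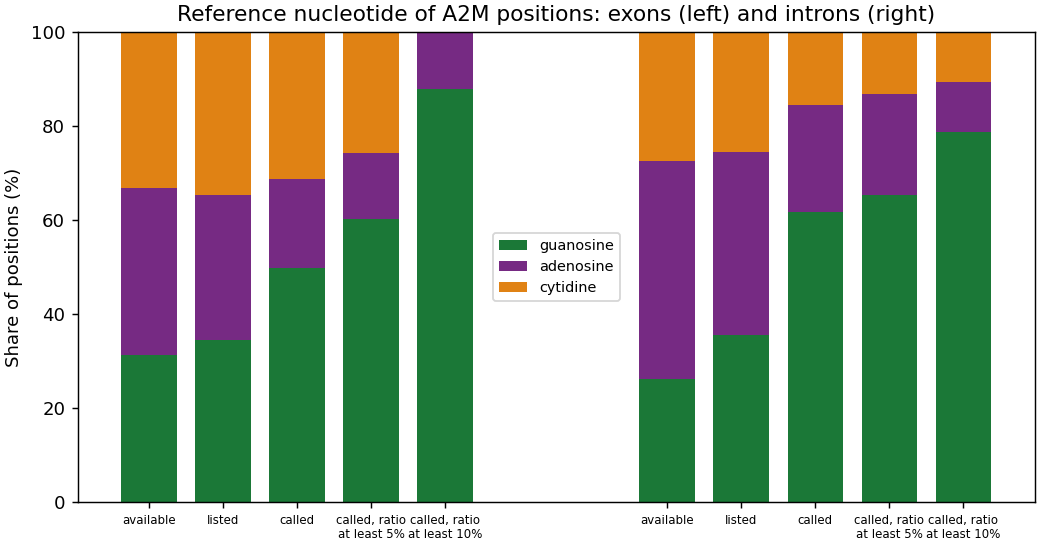
Share in percent of guanosine, adenosine and cytidine among A2M positions, with exons in the left 5 bars and introns in the right 5: all such bases of the transcript (available), positions listed under imbalanced dNTP, called sites, and called sites whose ratio reached 5% or 10% in all replicates. Guanosine takes 31.3% of the available exonic bases and 88.0% of exonic sites at 10%, and 26.2% and 78.7% in introns.

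The bases beside a called site were also uneven. UNU, a U on either side of the scored base on the transcript strand, surrounds 7.01% of the G, A and C bases of the exons and 11.6% of those of the introns. Among positions that were listed but not called it surrounded 8.63% and 25.1%, and among called sites 22.3% (87 sites) and 50.5% (223 sites). It surrounded 31.3% of called G in exons and 60.4% in introns, against 6.07% and 29.2% of G that was not called. For A the shares were 16.2% and 41.6% against 7.52% and 22.0%. For C they were 11.5% and 23.5% against 11.8% and 24.9%, so that called C was not richer in UNU. The most frequent contexts were CUGUG (25 sites, 10 of them exonic), AUGUA (22), UUGUA (21) and CUGUU (20), all with G in UNU.

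The mutation ratio of G in UNU was higher than that of other G in each library. In exons it was 9.57%, 10.1% and 8.82% for 82 positions against 4.72%, 4.77% and 4.90% for 459, a difference of 4.70 points (SD 0.721; exact p = 0.25). In introns it was 11.5%, 11.4% and 10.8% for 566 positions against 6.79%, 7.20% and 7.56% for 1078, a difference of 4.04 points (SD 0.757; exact p = 0.25). Unlike the difference between exons and introns, this one was as large at 50 to under 100 reads, with 4.59 points in exons (SD 0.582) and 4.89 in introns (SD 0.313). At 30 to under 50 reads it was smaller, with 3.30 points in exons (SD 0.915, 12 positions in UNU) and 3.67 in introns (SD 0.254). For A the difference over all depths was 2.12 points in exons (SD 0.979) and 1.91 in introns (SD 0.152), positive in all 3 replicates, and at 50 to under 100 reads it was 2.37 (SD 1.04) and 1.84 (SD 0.145). At 30 to under 50 reads, where 9 exonic A lay in UNU, it was 0.225 in exons (SD 1.19, exact p = 1) and 1.97 in introns (SD 0.280). For C the difference over all depths was -0.0702 in exons (SD 0.520, exact p = 1) and -0.118 in introns (SD 0.0784, exact p = 0.25). In exons the difference at C was 0.194 (SD 0.776, exact p = 1) at 50 to under 100 reads. At 30 to under 50 reads it was -0.923 (SD 1.73, exact p = 0.5, 9 positions in UNU), and both values lay within their spread. In introns the sign at C turned, to 0.500 (SD 0.311, exact p = 0.25) at 50 to under 100 reads and 0.227 (SD 0.0688, exact p = 0.25) at 30 to under 50.

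Few relatives and neighbours of A2M could be compared with it. The list held 11 genes of the alpha-2-macroglobulin and complement family, counting A2M itself, the antisense gene A2M-AS1 and the pseudogene A2MP1. Of these, 6 had listed positions, and only A2M and C3 had called sites. C3, the central complement component, had 629 listed positions and 15 called sites at median depths of 22, 20 and 32, and C5 had 47 listed positions with no call. C4A and C4B had 6 each, which is uncertain because the copies are nearly identical, and CPAMD8 had 1. PZP, A2ML1, CD109, A2M-AS1 and A2MP1 had no listed position in either table. The opposite strand of A2M had none in either table, nor had the 5 kb upstream on its own strand. The 5 kb downstream had 1 under imbalanced and 10 under balanced dNTP.

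A2M was set against APOB, which encodes the main protein of low-density lipoprotein, and FN1, which encodes fibronectin, the protein-coding genes next to it in called sites (739 and 552). Exons of APOB had median depths of 48, 43 and 64 and its introns 27, 24 and 37, and in FN1 these were 55, 48 and 74 and 19, 17 and 26. The exon over intron fold of A2M was 1.34 times that of APOB (1.34, 1.33 and 1.36; exact p = 0.25) and 0.831 times that of FN1 (0.822, 0.845 and 0.826; exact p = 0.25), so that A2M lay between them in each replicate. Among 80 protein-coding genes with at least 50 listed exonic and 50 listed intronic positions, exons were deeper in 69 and their mean ratio was lower in 71. A2M had the 9th highest fold, against a median of 1.35, and the 2nd largest number of listed intronic positions. Likeness was the Euclidean distance over intronic share, depth fold and ratio difference, each standardised over the 80 genes. RELN (distance 0.801), TGFBR3 (0.963) and BPIFB2 (1.00) were most like A2M, with exons 1.89-, 2.11- and 1.74-fold deeper than introns. Depth itself was not part of the distance, and their introns were shallower than those of A2M. The intronic medians were 9, 8 and 12 reads in RELN, 10, 9 and 14 in TGFBR3 and 15, 14 and 22 in BPIFB2.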

How the data were processed

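The authors used Cutadapt for adapter trimming, BBMap for removing duplicates with the same unique molecular identifier, TopHat2 for mapping to hg38 and JACUSA for base counting. Versions are not given in the sources used here. The deposited tables hold, for every library, counts of reads with A, C, G and T at a position and strand, without normalization. The deposited JACUSA score was not used. All per-sample columns could be assigned to a library.

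Positions of A2M were taken from both tables by strand and coordinates and split into exons and introns of the canonical GENCODE 44 transcript. All 11732 listed reference bases on chromosome 12 equal those of hg38. The mutation ratio is T reads over depth. Calls followed the criteria of the study's methods, without that on spike-in background, and took an input not listed as 0. A2M, its gene lists and the tests were chosen with earlier results of these data known, and the contrasts by UNU, by single classes of depth and in the balanced dNTP libraries after the values had been seen. The rule for named sites took, per base and region, the called site with the highest mean ratio at a lowest depth of at least 20, and the exons and introns with most listed positions. The windows, the other elements and the 5-base contexts were named after their values were seen.

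Exons and introns were compared within libraries by exact paired permutation tests (sign flips, two-sided), in which 3 pairs allow no p under 0.25. Positions are not replicates. Mutated and unmutated reads at 32284 positions with depth of at least 10 in all 6 libraries were compared by the quasi-likelihood F test of edgeR 4.0.16 (R 4.3.3), with library effects and a block for the replicate number. P-values were adjusted by Benjamini-Hochberg over all of them. The fit was tested on simulated data, with changes placed at deep positions only and no spread between replicates beyond counting error. That test therefore does not cover shallow A2M positions. Alternatives were DESeq2 1.42.0, Fisher's exact test, other depths, T read minimums, inputs, exon definitions, summaries and leaving out each replicate. Other steps used scipy 1.17.1, pandas 2.3.3, matplotlib 3.10.9 and numpy 2.4.6 in Python 3.11.15.

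Same-numbered libraries were taken as pairs, since per the labels' protocol each ligated RNA was divided between both reactions and the study's methods compare a replicate with its input. Centred on the 3 libraries of a reaction, log2 depth over 1060 A2M positions had correlations of 0.0150, 0.0841 and 0.0762 between same-numbered libraries and of -0.120 to 0.0517 between others, so that depth in A2M did not by itself show the pairing. Identical counts between replicates were found at no more than 0.963% of positions. Summed listed depth was 17063930 to 22485865 under imbalanced dNTP, of which A2M took 1.41% to 1.68%, and 22974020 to 34367262 under balanced dNTP, of which it took 0.716% to 0.841%. Limits for counts of 0 are 3 reads over the depth and cover counting error only.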

Additional observations from a re-analysis of the deposited data

How the results depend on the processing

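Of 56 alternatives, 44 kept the direction, and for counts stayed within 1.5 times the value reported. The 833 called sites became 438 at a depth of at least 50, 235 with at least 5 T reads, 195 with listed inputs only and 147 where all replicates reached a ratio of 10%, and 1099 to 1497 without 1 replicate. The edgeR count of 427 was 706 without the replicate block, 76 by Fisher's exact test in each replicate and 72 to 110 without 1 replicate, and DESeq2 gave 521. The share of G in exons minus that in introns was reversed, to 7.50 points, at a ratio of at least 10%. The exon over intron fold in depth stayed between 2.15 and 3.04, the 5′ over 3′ fold of intron depth between 1.44 and 1.57, the fold of A2M over that of APOB between 1.30 and 1.35 and over that of FN1 between 0.824 and 0.914, and the exon minus intron ratio between -3.84 and -0.300, with 1 replicate above 0 within classes of depth. With 3 pairs none of the paired tests could pass a threshold of 0.05, so that their p-values say nothing on stability. Depth limits the intronic values: 83.2% of intronic bases were not listed, and a shallow position can be listed only where a library gave it a high ratio.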
